A study of Homo sapiens with 6 samples.

Results

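The genes described here are the regulators of DNA methylation, the Polycomb complexes and the SWI/SNF remodelling complexes, with the histone methyltransferases and demethylases that work beside them. The list of 45 genes was matched by gene symbol, and all 45 were among the 28979 gene IDs with read counts. All 45 were also among the 14547 genes with enough reads to be tested. The list was proposed around DNMT3A, selected on its Ang against Con fold change in earlier results of these data, so the members' differences are given as a description and support nothing about the list.

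Messenger RNA was sequenced from the mesenchymal-type breast cancer line MDA-MB-231, of human origin, in 3 libraries labelled Ang and 3 labelled Con. Per the series design, the cells were incubated with exosomes of hypertrophic or of normal cardiomyocytes, and the aim was to find target genes of microRNAs. No label says which of these Ang and Con stand for, and no dose, exposure time or separate culture is named, so Ang and Con are used as group names and the spread between libraries may be technical.

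DNA methyltransferases add methyl groups to cytosine in CpG pairs, DNMT1 by copying the pattern after replication and DNMT3A and DNMT3B by setting it anew, while the TET enzymes oxidise the methyl group as a step towards its removal. Polycomb complex PRC2 methylates lysine 27 of histone H3 and PRC1 ubiquitinates histone H2A, and both are known for keeping developmental genes silent. SWI/SNF complexes move and evict nucleosomes with energy from ATP and counter Polycomb at many sites, and several of their subunits are recurrently mutated in cancers.

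Total counts ran from 3482629 to 3961442 in Ang libraries and from 3369212 to 5437190 in Con libraries, and a count of 0 allows up to 3 counts, or 0.507 to 0.944 CPM (counts divided by the scaled library total and given per 1e6), for counting error only. The cells carried most of the mesenchymal markers listed, with 1032 CPM of VIM, the vimentin gene, in Ang and 928 CPM in Con. Exons on the other strand cover 24.4% of the exon bases of VIM. FN1, a further mesenchymal marker with no such overlap, was at 377 CPM in Ang and 312 CPM in Con. ESR1, the estrogen receptor gene that this line is known to lack, was at 0.350 CPM in Ang and 0.266 CPM in Con. SPARC, listed as a mesenchymal marker, was at 0.196 CPM in Ang and 0.282 CPM in Con. KRT8, a keratin gene listed as epithelial, was at 987 CPM in Ang and 955 CPM in Con, and ERBB2, on the same list, at 103 and 107 CPM. Of 10 cardiomyocyte markers 7 were in the files, their summed level was 7.56 to 13 CPM in Ang and 7.18 to 19.2 CPM in Con, and NPPA alone was tested. NPPA made up most of that sum, with a mean of 8.31 CPM in Ang and 10.7 CPM in Con. Exons on the other strand cover 25.5% of its exon bases. Of 4 leukocyte markers 2 were in the files, with a summed level of 0.293 to 1.73 CPM in Ang and 0.315 to 2.32 CPM in Con. Of 5 germline and stem cell markers 2 were in the files, with a summed level of 8.82 to 10.9 CPM in Ang and 6.29 to 11 CPM in Con.

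The strand of the reads limits what a count means here. Over 250 pairs of a non-coding gene lying under the exons of a coding gene on the other strand, the non-coding gene had a median of 32.5 times the counts per base of the coding gene. The library medians were 32.9 to 35.4 in Ang, and 39.3, 23.2 and 41.1 in Con replicates 1 to 3, so Con replicate 2 stood apart. No strand-marking step is named in the protocol, and the cause of the ratio was not tested. Counts under a gene's name are therefore uncertain as a measure of its own RNA, and in bulk samples fewer cells of a type and less RNA per cell cannot be told apart.

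None of the members passed the threshold between Ang and Con. Over all 14547 genes, edgeR's quasi-likelihood test (Benjamini-Hochberg adjusted) called 0 of 45 members, against 0% of all tested genes, with a smallest adjusted p of 0.999 over all genes. At an unadjusted p under 0.05 it counted 2 members, DNMT3A and TET2, against 3.4% of all tested genes. DESeq2 called 0 and counted 1 member unadjusted, against 2.83% of genes, and limma-voom called 0 and counted 3, against 3% of genes.

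DNMT3A, selected on this fold change, had the largest one in size among the 45 members in edgeR's fit to all 6 libraries, ahead of CBX8 (0.86 ± 0.68, log2 scale) and TET2 (-0.77 ± 0.33), whose 95% intervals of -0.48 to 2.19 and -1.42 to -0.11 were wide. The gene lies on chromosome 2 (25227855 to 25342590, GRCh38, minus strand), and no exon of another annotated gene lies under its exons on the other strand. It had 7.92, 7.06 and 5.78 CPM in Ang replicates 1 to 3, from 27, 28 and 20 counts, against 24.3, 7.95 and 17.6 CPM in Con replicates 1 to 3, from 115, 47 and 56 counts. The Ang values lay close together, while Con replicates 1 and 3 were well above them and Con replicate 2 lay at the level of the highest Ang library. The mean was 6.92 ± 1.08 CPM in Ang and 16.6 ± 8.22 CPM in Con (SD, n = 3 each), a fold of 0.420 and a log2 fold change of -1.25 ± 0.37 (SE), the only member past 1 on that scale in that fit. By unadjusted p it was number 10 of the 14547 tested genes, and its adjusted p was 0.999 by the edgeR quasi-likelihood test.

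The separation of the DNMT3A groups was narrow and rested on single libraries. The lowest Con value was 7.95 CPM and the highest Ang value 7.92 CPM, and with relative log expression scaling the same libraries had 7.75 in Con and 7.90 in Ang, so that the groups overlapped. Without Con replicate 2 the log2 fold change was -1.60 ± 0.37 and DNMT3A was called (adjusted p 0.0333, edgeR), 1 of 45 members against 0.269% of all tested genes in that fit. Without Con replicate 1 it was -0.85 ± 0.45, with an adjusted p of 0.99995 by edgeR. Its lead over the other members also moved with the fit. CBX8 was at 1.35 and CBX7 at 1.18 without Con replicate 2, and without Con replicate 3 CBX8 was at 1.07 and TET2 at -1.04, against -1.21 for DNMT3A. In limma-voom CBX8, at 1.31, was larger in size than DNMT3A, at -1.03.

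The other DNA methyltransferases did not share that difference. DNMT1, the maintenance enzyme on chromosome 19 (10133345 to 10231286), had 160, 142 and 139 CPM in Ang, against 150, 168 and 119 CPM in Con. The groups overlapped, with means of 147 ± 11.3 CPM in Ang and 146 ± 24.6 CPM in Con and a log2 fold change of 0.01 ± 0.18, whose 95% interval was -0.34 to 0.36. DNMT3B, the closest relative of DNMT3A, on chromosome 20 (32762385 to 32809356), had 11.2, 7.31 and 11.3 CPM in Ang, against 6.97, 7.44 and 10.7 CPM in Con. Its groups overlapped as well, with 9.91 ± 2.25 CPM in Ang and 8.37 ± 2.03 CPM in Con and a log2 fold change of 0.25 ± 0.40, whose interval of -0.54 to 1.05 leaves room for 2-fold in the upward direction. Per kilobase of exon, over all 6 libraries, DNMT1 was at 14.9 ± 1.75 CPM, DNMT3B at 1.97 ± 0.452 CPM and DNMT3A at 0.979 ± 0.621 CPM, so the maintenance enzyme had 15.3 times the level of DNMT3A. That ratio was 26.1 from the Ang means and 10.7 from the Con means, and 21.8 over all 6 libraries with the longest transcript as length.

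**Figure D1:**
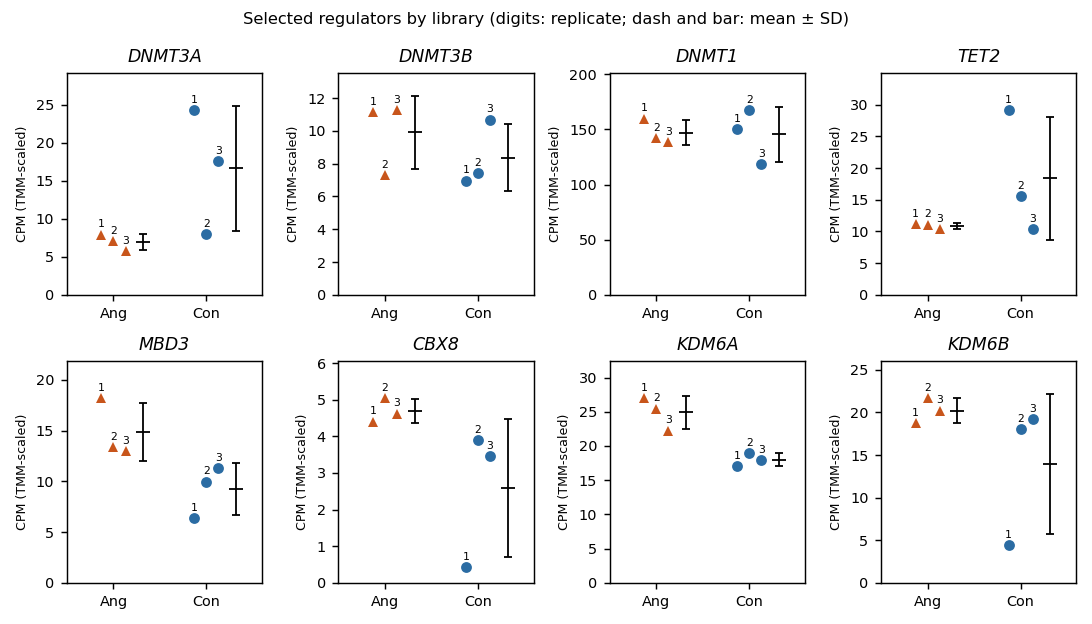
TMM-scaled CPM of 8 regulators in each of the 3 Ang libraries (orange triangles, left) and 3 Con libraries (blue circles, right), with the replicate number above each point and mean ± SD beside each group. DNMT3A is spread from 7.95 to 24.3 CPM in Con and lies at 5.78 to 7.92 CPM in Ang, and Con replicate 1 is the lowest library for KDM6B and CBX8.

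Since the series design names microRNA targets as its aim, seed matches in the transcript sense were listed for 12 microRNAs known from heart muscle or vesicles or known to act on these enzymes. The miR-29 family is known to act on DNMT3A and DNMT3B, miR-148 and miR-152 on DNMT1, miR-143 on DNMT3A, and miR-101 and miR-26 on EZH2. The mature sequences of these, from RefSeq (GRCh38.p14), are shown to make the sites below readable, with the seed, bases 2 to 8, in capitals. miR-148a-3p and miR-152-3p share 1 seed.
miR-29b-3p: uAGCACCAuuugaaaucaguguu
miR-143-3p: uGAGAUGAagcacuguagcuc
miR-148a-3p: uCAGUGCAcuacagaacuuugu
miR-152-3p: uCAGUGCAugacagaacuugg
miR-101-3p: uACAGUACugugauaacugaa
miR-26a-5p: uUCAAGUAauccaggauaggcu

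The longest annotated 3′ untranslated region of DNMT3A, of 6424 bases, held 4 matches to the miR-29b-3p seed, 2 to that of miR-143-3p and 1 each to those of miR-101-3p, miR-26a-5p, miR-1-3p and miR-30a-5p. The 4 miR-29b-3p matches (TGGTGCT) and 1 of those of miR-143-3p (TCATCTC) are printed because DNMT3A had the lowest fold. The part of any match in that fold was not tested. None of the printed matches has an A after it. Those to miR-1-3p, miR-26a-5p and miR-30a-5p, not printed, have one, which makes an 8mer. Each printed match is given with up to 30 bases of GENCODE 29 transcript sequence on GRCh38. It is read 5′ to 3′ on the gene's minus strand, with the bases paired to the seed in capitals.
DNMT3A miR-29b-3p site at chr2:25233411-25233440: tactgtacaacccgacttcataaTGGTGCT
DNMT3A miR-29b-3p site at chr2:25232968-25232997: ataaaaaaacatacaaaacgtacTGGTGCT
DNMT3A miR-29b-3p site at chr2:25231275-25231304: cagtggagtccctgtgctaactgTGGTGCT
DNMT3A miR-29b-3p site at chr2:25231017-25231046: ccaagctccaccggaactgggccTGGTGCT
DNMT3A miR-143-3p site at chr2:25234082-25234111: tgccttgcgaaaagggttggacaTCATCTC

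DNMT3B and TET2 held 1 miR-29b-3p match each, DNMT1 held 1 match to the shared seed of miR-148a-3p and miR-152-3p (TGCACTG) in a region of 321 bases, and EZH2 held 2 matches to miR-101-3p (GTACTGT) and 1 to miR-26a-5p (TACTTGA) in a region of 262 bases. These are shown as further examples of matches in members described here. The TET2 match lies well before the annotated end of the gene at 105279816, so its region may be that of a shorter transcript. An A after the match, in capitals where present, makes an 8mer.
DNMT3B miR-29b-3p site at chr20:32809083-32809112 (plus strand): taacaccttttactcttcttacTGGTGCTA
TET2 miR-29b-3p site at chr4:105242288-105242317 (plus strand): ttgttttttaaacaagcagtaggTGGTGCT
DNMT1 miR-148a-3p and miR-152-3p site at chr19:10133612-10133641 (minus strand): ctggcaccaggaatccccaacaTGCACTGA
EZH2 miR-101-3p site at chr7:148807525-148807554 (minus strand): tttgaaattctgaatttgcaaaGTACTGTA
EZH2 miR-26a-5p site at chr7:148807389-148807418 (minus strand): tttttcaactttgaataaagaaTACTTGAA

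The miR-29b-3p match was found in 19 of 45 members (42.2%), against 1876 of 11051 tested genes with a 3′ untranslated region (17.0%). The median region of the members was 2668 bases and that of all these genes 1443 bases, and the part of length in the share was not tested. The longest annotated region can also belong to a shorter transcript that ends inside the gene. The miR-29b-3p matches of TET2, ARID1B and NSD2, for instance, lie well before the annotated ends of these genes. Which transcripts the cells make was not tested. The median log2 fold change of the 19 members was 0.06, against 0.01 for the other 26, and over all genes the medians were 0.00 with and 0.01 without a match. TET3 held 10 miR-29b-3p matches, the most of any member, with a log2 fold change of -0.05 ± 0.60. For miR-101-3p 13 members (28.9%) had a match, against 12.5% of genes, with a median of -0.07 against 0.05 for members without, and for miR-26a-5p 9 members (20%), against 14.4% of genes, with 0.03 against 0.01. For miR-143-3p 13 members had a match, against 15.1% of genes, with a median of 0.01 against 0.02 for members without. For the shared seed of miR-148a-3p and miR-152-3p 7 members (15.6%) had a match, against 16.7% of genes. Of the other microRNAs searched, members had the lower share only for miR-133a-3p, with 6.667% against 8.787% of genes. Members had the higher share for miR-30a-5p (40% against 19.01%), miR-1-3p (26.67% against 13.97%) and miR-21-5p (24.44% against 10.55%). The same held for let-7a-5p (22.22% against 11.09%) and miR-208a-3p (4.444% against 2.063%). A higher share was thus not particular to miR-29b-3p. A match is a description of letters and not a shown site of action.

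The TET genes were low. TET2, on chromosome 4 (105145875 to 105279816), had 11.2, 11.1 and 10.4 CPM in Ang, against 29.1, 15.6 and 10.4 CPM in Con. Con replicates 1 and 2 lay above the Ang libraries and Con replicate 3 just below them, so the groups overlapped, and Con replicate 1 was highest, as for DNMT3A. The mean was 10.9 ± 0.419 CPM in Ang and 18.4 ± 9.69 CPM in Con, with a log2 fold change of -0.77 ± 0.33, and it was -0.27 ± 0.40 without Con replicate 1. TET3, the lowest of the 3 per kilobase, had 3.23, 4.29 and 5.20 CPM in Ang, against 2.75, 6.76 and 3.46 CPM in Con, and TET1 had a log2 fold change of 0.16 ± 0.58. Per kilobase of exon the TET genes were at 0.887 ± 0.448 CPM (TET2), 0.490 ± 0.211 CPM (TET1) and 0.349 ± 0.122 CPM (TET3), and neighbours in this order had overlapping library ranges.

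MBD proteins are named for a domain that binds methylated CpG, although MBD3, a subunit of the NuRD deacetylase and remodelling complex, binds it poorly in mammals. MBD3 lies on chromosome 19 (1573596 to 1592801) and had 18.2, 13.4 and 13 CPM in Ang, against 6.34, 9.97 and 11.3 CPM in Con. All 3 Ang libraries lay above all 3 Con libraries, with 14.9 ± 2.90 CPM in Ang and 9.21 ± 2.58 CPM in Con and a log2 fold change of 0.70 ± 0.36. MBD2, the highest of the 3 per kilobase (7.25 ± 0.971 CPM), had 45.8, 40.3 and 48.5 CPM in Ang, against 37.4, 46.3 and 34.3 CPM in Con, and its groups overlapped (0.18 ± 0.22 on the log2 scale). MBD1 had 23.2 ± 5.54 CPM in Ang and 22.9 ± 5.38 CPM in Con.

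Among the PRC2 genes, EZH2, the main catalytic subunit in dividing cells, was highest per kilobase at 10.1 ± 1.26 CPM, ahead of JARID2, an accessory subunit, at 7.84 ± 0.998 CPM, and SUZ12, a core scaffold, at 5.78 ± 1.0 CPM. EZH1, the alternative catalytic subunit, was at 3.11 ± 0.773 CPM and EED, which binds the methylated histone tail, at 1.72 ± 0.508 CPM. With the longest transcript as length SUZ12, at 8.42 CPM per kilobase, was above JARID2, at 8.19 CPM. EZH2 had 49.0, 43.4 and 40.4 CPM in Ang, against 55.3, 44.3 and 40.9 CPM in Con, and the groups overlapped (-0.08 ± 0.22 on the log2 scale). EED had 12, 9.58 and 11.6 CPM in Ang, against 14.1, 17.7 and 7.55 CPM in Con, and both extremes of the 6 libraries were Con libraries. Of the 5 PRC2 members 4 had negative log2 fold changes, from -0.28 to -0.08, and JARID2 had 0.14 ± 0.21. With 1 library left out at a time, each of the 5 changed sign in at least 1 fit. SUZ12 has a transcribed pseudogene copy, SUZ12P1, with 107 counts over all libraries against 943 for SUZ12, so reads may be split between them.

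PRC1 genes were low. RNF2, the ubiquitin ligase, led at 3.15 ± 1.28 CPM per kilobase, followed by BMI1, its partner, at 2.26 ± 0.685 CPM, and the chromodomain genes CBX8, CBX2 and CBX7, which read the PRC2 mark, lay between 0.707 and 0.874 CPM. RNF2 had 22.3, 6.56 and 11 CPM in Ang, against 11.6, 13.5 and 12 CPM in Con, so Ang replicates held both the highest and the lowest value. CBX8 had 4.40, 5.04 and 4.62 CPM in Ang, against 0.422, 3.89 and 3.46 CPM in Con, where Con replicate 1 had 2 counts. Its groups did not overlap, and the log2 fold change was 0.86 ± 0.68, or 0.34 ± 0.69 without Con replicate 1. CBX7 had 4.69, 5.80 and 8.38 CPM in Ang, against 1.90, 7.10 and 3.77 CPM in Con, with overlapping groups. BMI1 shares 23.3% of its exon bases with the read-through gene COMMD3-BMI1 on the same strand. That gene is not among those with read counts, and how reads in the shared bases were counted was not tested.

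The 15 SWI/SNF genes spanned the widest range of levels. BRD7, a bromodomain subunit of the PBAF form, was at 52.6 ± 5.0 CPM per kilobase, and SMARCE1, a core subunit with an HMG domain, at 0.231 ± 0.0903 CPM, a ratio of 227. BRD7 had 457, 437 and 458 CPM in Ang, against 445, 376 and 507 CPM in Con, with overlapping groups and a log2 fold change of 0.03 ± 0.17. SMARCE1 had 3.23, 3.78 and 4.62 CPM in Ang, against 2.32, 4.73 and 7.23 CPM in Con, with overlapping groups and a log2 fold change of -0.27 ± 0.61. Both ends of the range have exon overlap. Exons of ADCY7 and of AC007493.2 on the other strand cover 42.4% of the exon bases of BRD7, and 19.8% of those of SMARCE1 are shared on the same strand with AC073508.2, a protein-coding gene that had 202 counts against 104 for SMARCE1.

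The ATPase SMARCA4 (BRG1) was at 6.26 ± 0.550 CPM per kilobase and its alternative SMARCA2 (BRM) at 2.72 ± 0.379 CPM. SMARCA4 had 98, 105 and 109.8 CPM in Ang, against 87.0, 102 and 90.6 CPM in Con (0.16 ± 0.18 on the log2 scale), and SMARCA2 had a log2 fold change of -0.09 ± 0.21. Of the 3 SMARCD subunits, alternatives for 1 place in the complex, SMARCD3, known for heart and muscle forms of the complex, was highest at 18.7 ± 3.43 CPM per kilobase, against 5.30 ± 1.06 CPM for SMARCD2 and 3.50 ± 0.601 CPM for SMARCD1. Exons on the other strand cover 13.8% of the exon bases of SMARCD3. The scaffolds SMARCC2 and SMARCC1 were at 8.97 ± 0.898 and 7.75 ± 1.28 CPM, and SMARCB1, a core subunit lost in rhabdoid tumours, at 2.49 ± 0.439 CPM with 17.7% of its exon bases under DERL3. With the longest transcript as length SMARCB1 was at 7.88 CPM per kilobase and SMARCC1 at 9.29 CPM.

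The subunits that tell the SWI/SNF forms apart had no common direction. ARID1A and ARID1B, of the BAF form, had log2 fold changes of -0.11 ± 0.22 and 0.01 ± 0.32. Of the PBAF genes, ARID2 had 12.3, 14.9 and 9.24 CPM in Ang, against 6.12, 9.97 and 7.23 CPM in Con, with overlapping groups (0.63 ± 0.39 on the log2 scale). PBRM1, also of PBAF, had 37.6, 37.8 and 49.97 CPM in Ang, against 49.6, 54.1 and 47.5 CPM in Con, with overlapping groups (-0.27 ± 0.22). BRD9, of the non-canonical form, had -0.04 ± 0.25. Of the 15 genes 6 had positive values, and the median was -0.08.

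Of the KMT2 genes, which methylate lysine 4 of histone H3, KMT2C was highest per kilobase at 2.91 ± 0.360 CPM and KMT2D lowest at 1.605 ± 0.174 CPM, a 1.81-fold range with the union of exons as length. With the longest transcript KMT2A was highest at 4.97 CPM, against 3.47 CPM for KMT2C and 1.69 CPM for KMT2D, a 2.94-fold range. KMT2D had 36.1, 32.5 and 37.8 CPM in Ang, against 30.2, 32.3 and 28.3 CPM in Con. The groups did not overlap, by a margin of the lowest Ang over the highest Con value that was smaller than the spread within either group, and the log2 fold change was 0.23 ± 0.24. KMT2C had 56.6, 68.1 and 61.8 CPM in Ang, against 57.7, 60.9 and 46.2 CPM in Con, with overlap. KMT2A, the gene broken in mixed-lineage leukaemia, had -0.07 ± 0.18 and KMT2B 0.16 ± 0.28 on the log2 scale.

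The demethylases of lysine 27, KDM6A (UTX) and KDM6B (JMJD3), had positive values. KDM6A, on the X chromosome (44873177 to 45112602), had 27.0, 25.5 and 22.2 CPM in Ang, against 17.1, 18.9 and 17.9 CPM in Con. All Ang libraries lay above all Con libraries, with 24.9 ± 2.43 CPM in Ang and 18.0 ± 0.915 CPM in Con and a log2 fold change of 0.47 ± 0.28. KDM6B, on chromosome 17 (7839904 to 7854796), had 18.8, 21.7 and 20.2 CPM in Ang, against 4.43, 18.1 and 19.2 CPM in Con. Con replicate 1 alone was low, the groups overlapped, and the log2 fold change of 0.55 ± 0.32 was 0.12 ± 0.32 without it. Of the lysine 4 demethylases, KDM5A had 13.2, 25.5 and 16.2 CPM in Ang, against 29.1, 18.4 and 18.6 CPM in Con (-0.27 ± 0.29), and KDM5B had 58.0 ± 14.6 CPM in Ang and 55.7 ± 9.32 CPM in Con, both with overlapping groups.

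The methyltransferases of lysine 36 of histone H3, whose marks DNMT3A and DNMT3B bind through their PWWP domains, had small positive values. NSD2 was highest per kilobase at 8.26 ± 1.16 CPM, SETD2, the trimethylase, was at 6.33 ± 0.939 CPM and NSD1 at 2.40 ± 0.587 CPM. NSD2 had 164, 174 and 163 CPM in Ang, against 146, 199 and 133 CPM in Con (0.07 ± 0.17 on the log2 scale). NSD1 had 40.5, 47.1 and 31.5 CPM in Ang, against 32.5, 46.7 and 24.5 CPM in Con (0.19 ± 0.23). The groups overlapped for all 3 genes. With 1 library left out at a time, the lowest values were -0.004 for NSD1, -0.054 for NSD2 and 0.066 for SETD2.

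**Figure D2:**
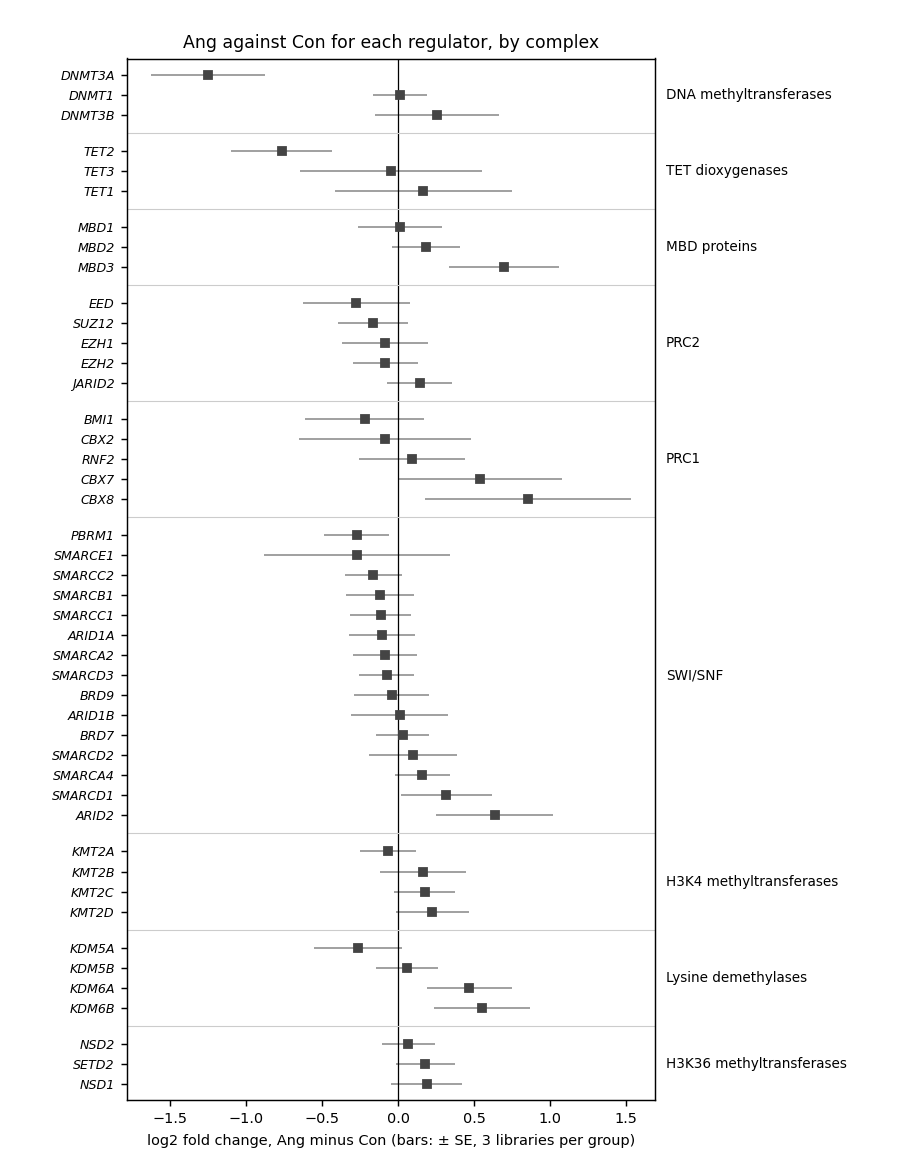
Log2 fold change, Ang minus Con, of each of the 45 regulators, by complex, with bars of ± 1 SE from the edgeR fit over 3 libraries per group. DNMT3A lies at -1.25, CBX8 at 0.86 is the highest, and 38 of 45 lie within 0.5 of 0.

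Over the whole list, 25 of 45 log2 fold changes were positive (55.6%), against 49.2% of all tested genes, and the median was 0.01, against -0.01 for all tested genes. The median absolute log2 fold change was 0.16, against 0.18. In all, 7 members were past 0.5 in either direction, against 14.2% of all tested genes. The groups did not overlap for 5 members (11.1%), against 8.16% of all tested genes. DNMT3A was the 1 with lower values in Ang, against 4.54% of genes in that direction, and MBD3, CBX8, KMT2D and KDM6A were the 4 with higher values, against 3.62%. As the members were chosen with this contrast in view, these shares are a description. For 32 of 45 members, among them EZH2, SUZ12, SMARCA4 and DNMT1, neither end of the 95% interval reached 2-fold, against 64.2% of all tested genes. DNMT3A, DNMT3B, all TET genes, MBD3, the 3 CBX genes, ARID2, SMARCE1, KDM6A and KDM6B had wider or shifted intervals.

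**Figure D3:**
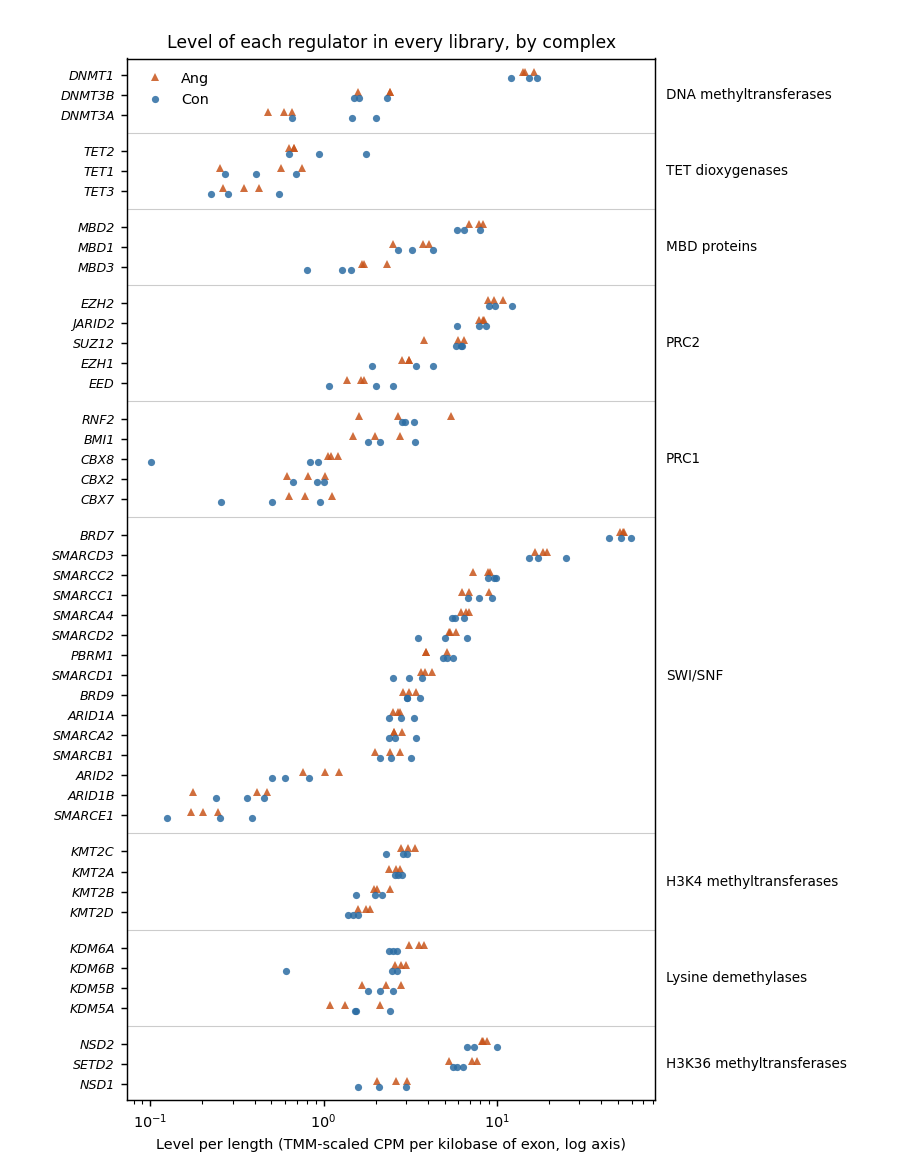
Level of each regulator per kilobase of exon (TMM-scaled CPM per kilobase, log axis) in 3 Ang libraries (orange triangles) and 3 Con libraries (blue circles), by complex and in order of the mean level. BRD7, SMARCD3, DNMT1 and EZH2 are above 10, and SMARCE1, TET3, ARID1B and TET1 are the lowest.

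In order of level per kilobase, 4 members were above 10 CPM (BRD7, SMARCD3, DNMT1 and EZH2) and 10 below 1 CPM, among them DNMT3A at rank 36 of 45 and all 3 TET genes. By single library the rank of DNMT3A ran from 29 to 42, and its level was 0.659, 0.587 and 0.481 CPM per kilobase in Ang, against 2.02, 0.661 and 1.47 in Con, so Con replicates 1 and 3 were above 1. Of 44 pairs of neighbours in this order, only BRD7 and SMARCD3 had library ranges that did not overlap, so the order of the others is uncertain between neighbours. With the longest annotated transcript as length, 7 members were above 10 and 4 below 1 CPM per kilobase, DNMT3A was at rank 39, and ARID1B moved to rank 36, against rank 43 with the union of exons. SMARCB1 moved to rank 12, against rank 25 with the union of exons. Summed per kilobase over its 3 genes, the DNA methyltransferases were at 19.4, 16.7 and 17.1 CPM in Ang, against 18.9, 19.4 and 15.9 CPM in Con, of which DNMT1 is the greater part. The PRC2 sum was 29.6, 28.9 and 25.7 CPM in Ang, against 27.9, 31.5 and 27.6 CPM in Con. The SWI/SNF sum without BRD7 was 64.0, 69.4 and 66.8 CPM in Ang, against 63.3, 71.3 and 71.8 CPM in Con. The demethylase sum was 9.74, 11.4 and 8.90 CPM in Ang, against 7.53, 9.20 and 8.50 CPM in Con. The Ang and Con sums overlapped in each of these complexes.

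Within Con the libraries differed in where the members lay. Con replicate 1 was the lowest of the 6 libraries for 15 members (33.3%), against 18.2% of all tested genes, and the highest for 8 (17.8%), against 18.5%. Con replicate 2 was the highest for 13 members (28.9%), against 19.9% of all tested genes, and the lowest for 1 (2.22%), against 19.6%. Con replicate 3 was the lowest for 11 (24.4%), against 20.5% of all tested genes, and the highest for 3 (6.67%), against 20.8%. Ang replicate 2 was the highest for 10 members (22.2%), against 13.4% of all tested genes. The mean log2 CPM of the members was 4.71, 4.77 and 4.71 in Ang, against 4.55, 4.85 and 4.60 in Con. Con replicate 2, with the highest value, also had the lowest strand ratio (23.2), and the part of that ratio in the members' values was not tested. Without Con replicate 2 the median log2 fold change of the members was 0.19.

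Of the 45 members 27 had no exon base under an exon of the other strand, among them all DNA methyltransferases and TET genes, and 18 had some, 4 of them over 10% (BRD7, CBX7, SMARCB1 and SMARCD3). These 18 formed 21 pairs with a gene in the files. Of the 13 partners that are not protein coding 9 had more counts per base than the member, with a median ratio of 5.31, and of the 8 coding partners 4 did, with a median of 0.996. AC005943.2, a gene of 148 bases lying wholly under MBD3 exons, had 2369 counts against 285 for MBD3, or 441 times its counts per base, and its log2 fold change was 0.17 ± 0.18. AP001267.3, antisense to KMT2A, had 37.7 times its counts per base, and AL031846.2, antisense to CBX7, 38.9 times. MYL6, the abundant myosin light chain gene that overlaps SMARCC2 at the other strand, had 7.01 times. As AC005943.2 had more counts than MBD3, most of its reads were not counted under MBD3 too. For MBD3, CBX7, KMT2A and SMARCC2 the gene of origin of reads where the exons overlap was not tested, whichever gene they were counted under. For all 45 members, free of overlap or not, it was not tested which strand the counted reads came from, so their levels are uncertain as well. On the same strand, 9 members share exon bases with another gene, among them BMI1 and SMARCE1. KMT2A shares 17.9% of its exon bases with AP001267.5 and MBD3 9.78% with AC005943.1. Neither of these protein-coding partners is among the genes with read counts.

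**Figure D4:**
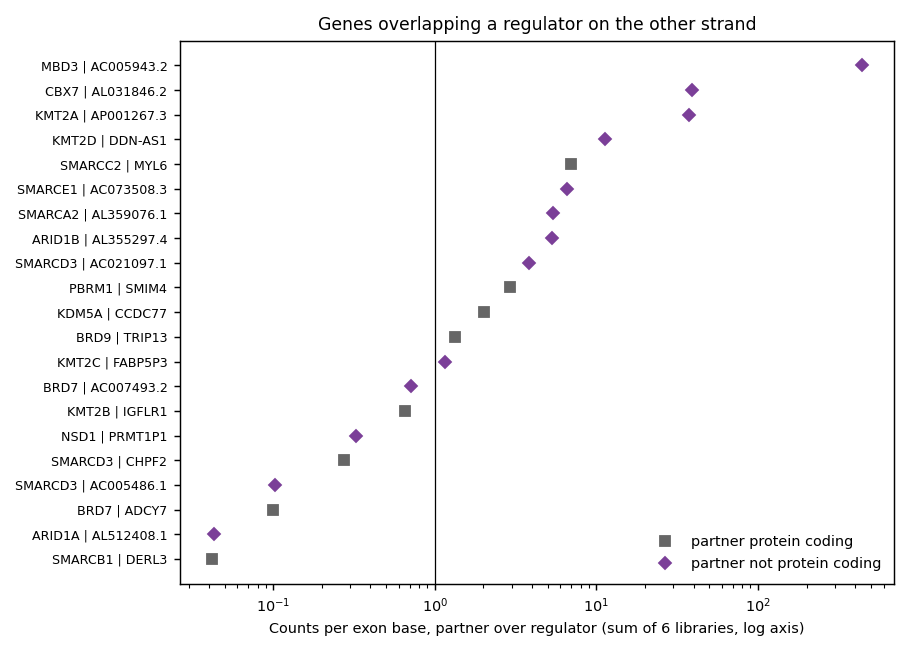
Ratio of counts per exon base, partner over regulator, summed over the 6 libraries (log axis), for the 21 pairs of a regulator and a gene with exons under it on the other strand. Squares are protein-coding partners and diamonds the others, 13 points lie above 1, and MBD3 and AC005943.2 have the highest ratio, 441.

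Other genes of the same pathways were read from a list. Of 79 further genes listed for DNA methylation, PRC2, PRC1 and BAP1, SWI/SNF, lysine 4 and lysine 36 methylation, 75 were tested, 0 passed the edgeR threshold in either direction, against 0% of all tested genes, and 0 had an unadjusted p under 0.05. In all, 40 of 75 had positive values, with a median of 0.01. The DNA methylation list, with 12 tested genes, had 8 positive values, with TDG, the glycosylase that removes oxidised methylcytosine, at -0.52 ± 0.37 and GADD45A at -0.24 ± 0.25. The PRC2 list had 3 of 7 positive, with PHF1, a Polycomb-like subunit, at 0.37 ± 0.26. The PRC1 and BAP1 list had 11 of 20 positive, with PHC1, a polyhomeotic subunit, at -0.23 ± 0.18. The SWI/SNF list had 5 of 12 positive, with SS18L1 at -0.61 ± 0.35 and DPF2 at 0.50 ± 0.31. The lysine 4 list had 8 of 15 positive, with ASH2L, a core subunit of the KMT2 complexes, at 10.6 ± 1.23 CPM in Ang and 16.4 ± 3.71 CPM in Con (-0.63 ± 0.34). The lysine 36 list had 5 of 9 positive, with KDM4A, a demethylase, at -0.50 ± 0.32.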

How the data were processed

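Per the labels' protocols, poly-T selected messenger RNA was fragmented, primed with random oligonucleotides and amplified in 15 PCR cycles. The authors deposited 1 table per library, with the count of reads for each Ensembl gene as a whole number. Per the submitters' processing notes, HTSeq 0.9.1 and DESeq 1.39.0 were used with GRCh38. What aligner, annotation release and strand setting went with them is not given in the sources used here.

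From the counts, edgeR 4.0.16 in R 4.3.3 was run with filterByExpr, trimmed mean of M values (TMM) scaling and the robust quasi-likelihood test, two-sided, with Benjamini-Hochberg adjustment and a threshold of 0.05. CPM values are TMM scaled, levels per kilobase divide them by the union of GENCODE 29 exons, and log2 fold changes are Ang minus Con. Exon overlaps came from bedtools 2.31.1, and seed matches were searched in the longest 3′ untranslated region of each gene. Of 28979 IDs, 28227 had a symbol and 28192 a GENCODE 29 entry. Checked on 3 simulated tables of the Ang against Con comparison (14547 genes, 200 of them altered), edgeR recovered 40.3% of the 2-fold and 81.3% of the 4-fold alterations.

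The members, lists and microRNAs were chosen with earlier results of these data known. Per library values are given for DNMT3A, the other DNA methyltransferases, the 5 members with the smallest unadjusted p and the highest and lowest member of each complex, and for some others, such as CBX8, chosen after their values were seen. Tried as alternatives were DESeq2 1.42.0 and limma-voom (limma 3.58.1), relative log expression (RLE) scaling, other count filters, the replicate number as a block, each library left out in turn, and genes with no exon overlap on the other strand.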

Additional observations from a re-analysis of the deposited data

How the results depend on the processing

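DESeq2, limma-voom, RLE scaling, dropping the count filter, asking for 1 CPM in 3 libraries, the replicate block and the fit on genes free of other-strand overlap left the called genes and called members at 0, the log2 fold change of DNMT3A between -1.30 and -1.03, and the members' median between -0.02 and 0.06. Leaving out 1 library gave 0 to 40 called genes, 0 to 1 called members, a members' median of -0.051 to 0.19 and a DNMT3A value of -1.60 to -0.85. Without Con replicate 2 these were 40, 1 (DNMT3A), 0.19 and -1.60, without Con replicate 1 there was 1 called gene and 0 members, and the cause was not tested. Deviations from the group mean correlated at 0.037, 0.068 and 0.036 between same-numbered Ang and Con libraries. Between differently numbered ones the values ran from -0.070 to 0.030. All were small and the same-numbered ones were the highest, so these numbers do not settle whether the libraries were paired. The block gave 0 called genes, 0 called members, a DNMT3A value of -1.14, a CBX8 value of 1.09 and a members' median of 0.02. Of 554 alternative values of the other 44 members, 42 changed sign, all without a call and none with a first value beyond 0.28 in size. These came from 25 members, so the direction of many members is uncertain. The rank of DNMT3A by level was 39 with the longest transcript as length and 33 of the 41 members with under 10% overlap. Of simulated 2-fold changes 40.3% were called, so many changes of that size may be missed. The simulated tables had 200 altered genes and no library set apart from its group, and the rate in the 6 libraries themselves was not tested.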
